A study of Mus musculus with 6 samples.

Results

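The circadian clock genes described here are 10 of the 24444 gene symbols in the deposited table: Ciart, Per1, Per2, Per3, Cry1, Cry2, Nr1d1, Nr1d2, Dbp and Arntl. They were taken by symbol, and all 10 were present and kept by the filter on low values, a mean at least 1 above the lowest value of the table, which kept 14249 genes. The set was chosen by measured values of the genotype comparison, in which Ciart was among the genes that differed most between the labelled groups. The differences between genotypes of all 10 are therefore given as a description and support nothing.

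The clock is a feedback loop of transcription that runs in most mammalian cells. The activators CLOCK and BMAL1, the product of Arntl, bind E-box sequences and switch on the Per, Cry, Nr1d, Dbp and Ciart genes, whose products act back on the loop: PER and CRY proteins and CIART repress the activators, the nuclear receptors REV-ERBα and REV-ERBβ (Nr1d1 and Nr1d2) repress Arntl, and DBP activates genes with D-box sequences. In the mouse embryo these transcripts are present well before strong daily rhythms are seen in the brain.

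RNA was sequenced from the telencephalon of E12.5 mouse embryos, strain C57BL/6J, in 3 libraries labelled wild-type and 3 labelled -/- for 1 gene that is not reported here, called mutant 1 to 3 here. By its title the series asks how neuronal cilia affect axonal tracts. The kind of mutant allele, the hour of collection and whether each library came from a separate embryo could not be read from the labels, so the spread between libraries may be technical in part. Values are printed as normalized counts, obtained by undoing the deposited variance-stabilising transformation, and differences between groups are on the transformed, log2-like scale unless stated otherwise.

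In their cell-type markers, wild-type 1 and mutant 2 stood apart from the rest. The summed normalized counts of 6 genes of dividing cells were 9995 for wild-type 1 and 196 for mutant 2, against 40040 to 49405 in the others. Those of 6 genes of postmitotic neurons were 220654 and 506972, against 124608 to 131578. Of 6 red blood cell genes, 4 were at 0 in mutant 2. The normalized counts of all genes summed to 36200000 in mutant 2 and to 27500000 to 29200000 in the others. Values of mutant 2 are therefore not shares of a like total. The Y-linked Ddx3y had 1093 and 1258 in wild-type 2 and 3 and at most 1.23 in the other 4. Each result is therefore given for all 6 libraries and for the 4 alike libraries, wild-type 2 and 3 and mutant 1 and 3, in which Y-linked expression and genotype cannot be told apart.

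Ciart, which encodes a repressor of CLOCK and BMAL1 also known as CHRONO, was the member that differed most between the labelled groups. Ciart stood at 66.5, 48.7 and 50.8 normalized counts across wild-type 1 to 3 and at 117, 166 and 219 across mutant 1 to 3. Every library labelled mutant lay above every wild-type library, and mutant 3 was the highest. The mean count was 3.02 times higher over all 6 libraries and 3.38 times higher over the 4 alike libraries. On the transformed scale its mean was 7.83 ± 0.33 (SD, n = 3) for mutant against 6.84 ± 0.13 (SD, n = 3) for wild-type, a difference of 0.99 ± 0.25 (SE). Over the 4 alike libraries the difference was 1.06 ± 0.22 (SE, n = 2 per group). As log2 of the counts with 1 added, which compresses low genes less, the differences were 1.55 and 1.67. Ciart is a low transcript, with an estimated 64.6 to 124 reads per wild-type library and 126 to 357 per mutant library.

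All 3 mutant libraries above all 3 wild-type libraries was also the order of 4.67% of the 14249 genes, and the reverse order that of 3.59%. Among the clock genes Ciart alone had the first order, which the choice of members used, and 0 had the second. In limma's fit to all genes, none of the 10 passed an adjusted p of 0.05, and 0% of all genes passed. At an unadjusted p under 0.05 there were 1 of the 10, Ciart, and 163 of all genes. In the 4 alike libraries 0 of the 10 passed, against 0.253% of all genes, and 3 had an unadjusted p under 0.05 (Ciart, Nr1d2 and Arntl), against 2053 of all genes.

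**Figure D1:**
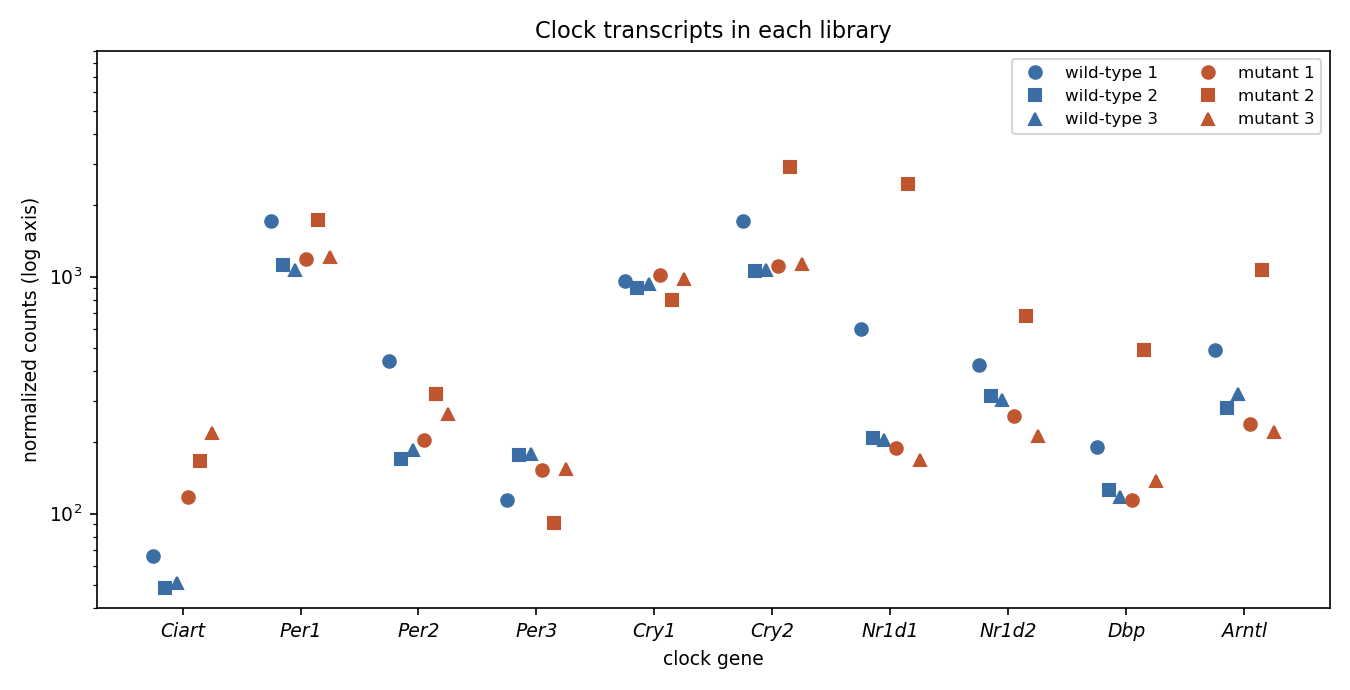
Normalized counts (log axis) of the 10 clock genes, with 1 point per library, wild-type in blue and mutant in orange. Ciart is the gene whose blue and orange points do not overlap, and the squares of mutant 2 lie far above the rest for Nr1d1, Dbp and Arntl.

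The plot of counts by library shows 2 kinds of spread, that of Ciart between the labelled groups and that of most other members between the libraries that stood apart and the rest. Within the 4 alike libraries the highest count was 4.51 times the lowest for Ciart. For the other 9 members this range lay between 1.07 for Cry2 and 1.55 for Per2.

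The sequence before the Ciart start is shown because it holds the E-box that the clock activators bind 3 times, and it is set beside those of Cry1 and Per1, the other 2 members with that motif. RefSeq windows of 250 bases before the start were matched by symbol for 9 of the 10 genes, without Per2, and in 11 windows, as Per1 and Arntl have 2 starts each. In the sequences, from build GRCm38.p6 and written 5′ to 3′ on the gene's strand, capitals mark matches on either strand to the E-box, CACGTG, to the related E-prime-box, spelled CACGTT, which reads AACGTG on the other strand, and to the half-site of the REV-ERB and ROR receptors, AGGTCA, which reads TGACCT on the other strand.
Ciart, chr3:95882229-95882478, minus strand: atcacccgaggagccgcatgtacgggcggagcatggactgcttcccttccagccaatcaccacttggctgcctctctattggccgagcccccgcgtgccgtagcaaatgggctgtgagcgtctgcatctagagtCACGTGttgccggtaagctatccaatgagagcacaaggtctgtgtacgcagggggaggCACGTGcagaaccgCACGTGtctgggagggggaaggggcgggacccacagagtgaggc
Cry1, chr10:85185055-85185304, minus strand: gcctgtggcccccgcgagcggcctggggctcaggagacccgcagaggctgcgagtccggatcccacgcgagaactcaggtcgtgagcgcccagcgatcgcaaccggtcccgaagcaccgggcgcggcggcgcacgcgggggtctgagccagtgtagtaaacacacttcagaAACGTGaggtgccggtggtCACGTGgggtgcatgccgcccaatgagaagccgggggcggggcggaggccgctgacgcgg
Per1, first start, chr11:69098699-69098948, plus strand: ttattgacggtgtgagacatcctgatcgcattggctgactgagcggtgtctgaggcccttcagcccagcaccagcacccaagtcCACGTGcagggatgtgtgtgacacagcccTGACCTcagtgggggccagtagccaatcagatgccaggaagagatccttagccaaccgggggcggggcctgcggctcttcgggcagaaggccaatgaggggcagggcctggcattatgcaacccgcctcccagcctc
The Ciart matches begin 116, 58 and 44 bases before the start. The Cry1 E-box begins 60 bases before the start with an E-prime-box at 79, and the Per1 E-box begins at 166.

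On both strands, 6.02% of all 32851 RefSeq windows of this length held CACGTG, and 20 windows, or 0.0609%, held it 3 times or more. Of the 9 members with a window, 3 held CACGTG. The E-prime-box was present in 3 members, Cry1, Cry2 and Nr1d1, and in 3.85% of all windows, and the receptor half-site in 2, Per1 and Nr1d2, and in 14.0%. The E-prime-box differs from the E-box in its last letter. A match describes the letters in the window and not a bound site. Dbp and Arntl had none of the motifs searched in their windows.

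**Figure D2:**
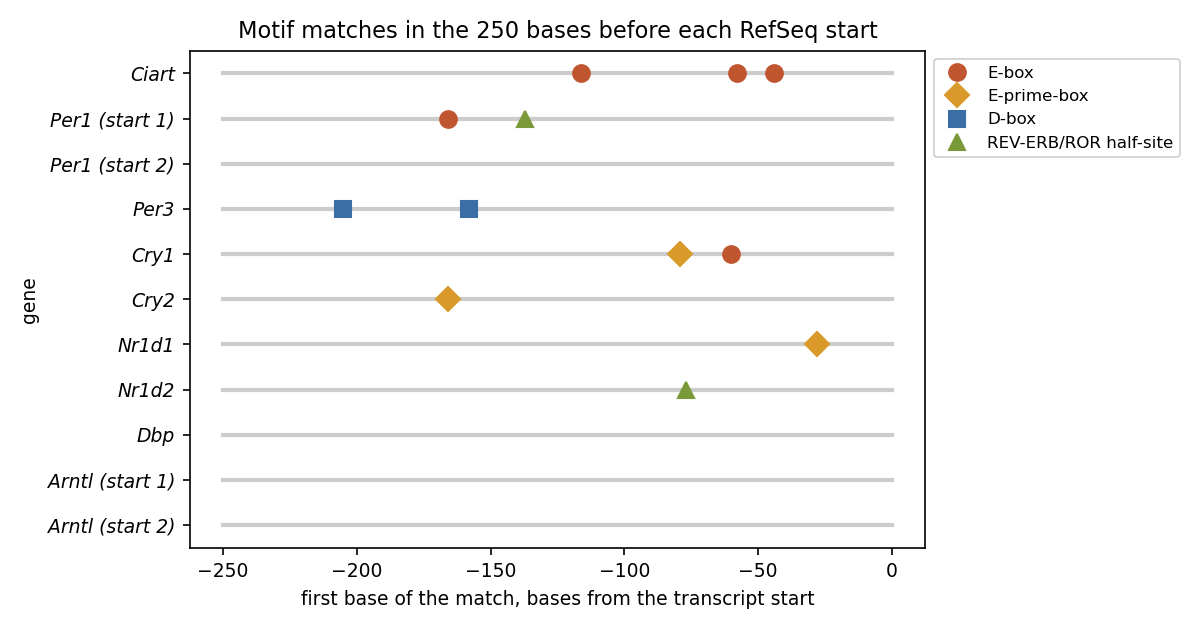
Positions of the motif matches in the 250 bases before each RefSeq start of the 9 clock genes with a window, in bases from the start. Ciart has 3 E-box matches at 116, 58 and 44 bases before the start, and Per3 has 2 D-box matches.

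Among 13460 genes ranked, the highest Pearson correlation with Ciart across the 6 libraries was that of Aldoa, the glycolytic enzyme aldolase A (r = 0.988), followed by Dhrs11 (0.978) and Ehd1 (0.978). With 6 libraries, 2 of which stood apart, these r values are a description. Aldoa stood at 11204, 8851 and 8775 normalized counts across wild-type 1 to 3 and at 13456, 16028 and 18409 across mutant 1 to 3. Its groups did not overlap, and its mutant libraries took the same order as for Ciart. Ehd1, an endocytic trafficking gene, lay between 4801 and 4870 over the wild-type libraries and between 5033 and 5182 over mutant, a much narrower range than that of Ciart.

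Of 12 genes listed as induced by hypoxia, 11 were tested and 3 had mutant above wild-type in all 6 libraries, against 4.67% of all genes. These were Aldoa, Ldha and Bnip3, the last named after its values were seen. Aldoa was also the gene most correlated with Ciart over the same libraries, so its order is not a separate match. Bnip3, a mitophagy gene, stood at 838, 506 and 502 normalized counts across wild-type 1 to 3 and at 912, 1315 and 1598 across mutant 1 to 3. Ldha, lactate dehydrogenase A, had 9530, 11096 and 12351, and 21366, 13643 and 30937. Adm and Vegfa, which encode a vasodilator peptide and an angiogenic factor, did not follow Ciart in the libraries that stood apart. In wild-type 1 Adm was at 103 and Vegfa at 2013, and in mutant 2 they were at 15.8 and 680. In the 4 alike libraries 10 of the 11 had both mutant libraries above both wild-type libraries, against 29.3% of all genes, with a median difference of 0.83, against 0.02 for all genes. The list and the 4 libraries were chosen with earlier results of these data known, so these values are a description. Over 6 libraries the median was 0.42, against 0.003 for all genes, and Adm differed by 0.67 ± 0.66 (SE; limma adjusted p = 0.99). Over the 4 alike libraries Adm rose by 1.66 ± 0.17 (SE; limma adjusted p = 0.0483) and was the only one of the 11 to pass. Centring, no filter, no trend and leaving out wild-type 2 or 3 ended that call, with adjusted p between 0.0574 and 0.376. With library weights estimated gene by gene over 6 libraries Adm, Ldha and Vegfa passed (limma adjusted p = 0.0139, 0.0311 and 0.0499), without mutant 1 the same 3 passed over the alike libraries (0.00222, 0.00129 and 0.00415), and without mutant 3 Adm and Ldha did (0.0233 and 0.0184).

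Most lists of summed cell-type markers also separated by label in the 4 alike libraries, red blood cells, telencephalon and surface ectoderm among them. The summed normalized counts of 6 red blood cell genes were 55842 and 72046 in wild-type 2 and 3 and 101930 and 284990 in mutant 1 and 3. Those of 6 telencephalon genes were 18610 and 24933 against 14107 and 4442, and those of 6 surface ectoderm genes were 2642 and 1116 against 505 and 105, with 1 of the 6 at 0 in mutant 3. The sums also lay higher in mutant 1 and 3 for radial glia (99743 and 113836 against 88908 and 90427) and endothelium (6062 and 7312 against 5403 and 5694). Postmitotic neurons did too (131578 and 128437 against 124608 and 125972). Mesenchyme lay lower (13917 and 16661 against 49266 and 20158), and dividing cells overlapped. Mutant 3 was the extreme of the 4 for red blood cells, telencephalon, surface ectoderm, radial glia and endothelium, as it was for Ciart, Aldoa, Bnip3 and Ldha. It was not for postmitotic neurons and mesenchyme. Over all 6 libraries the red blood cell sum did not keep the order of Ciart, at 3365 in wild-type 1 and 22.3 in mutant 2. The part of these markers and of the hypoxia genes in the Ciart difference was not tested.

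**Figure D3:**
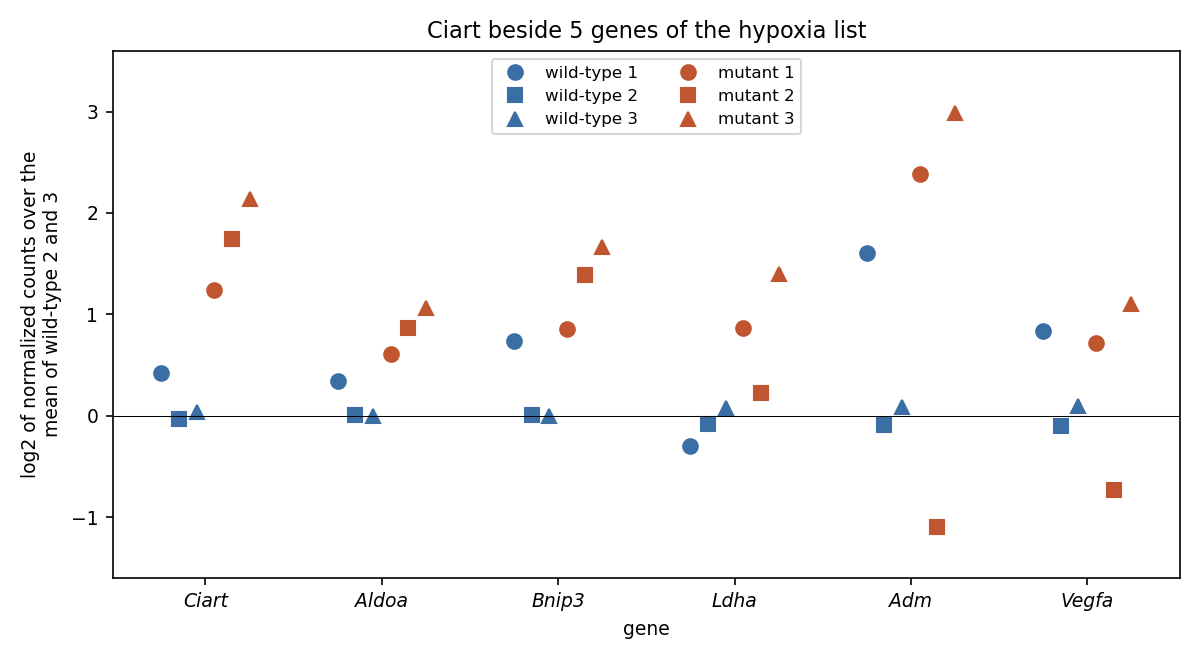
Log2 of the normalized counts of Ciart and 5 genes of the hypoxia list over the mean of wild-type 2 and 3, with 1 point per library, wild-type in blue and mutant in orange. Aldoa and Bnip3 keep the order of Ciart in the mutant libraries, while Adm and Vegfa lie below 0 in mutant 2.

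The Period genes encode the proteins that, with CRY, repress the clock activators, and their groups of 3 overlapped for all 3 genes. Per1, which also responds quickly to cAMP and glucocorticoids, stood at 1724, 1119 and 1072 normalized counts across wild-type 1 to 3 and at 1189, 1729 and 1215 across mutant 1 to 3. The 2 highest values belonged to wild-type 1 and mutant 2 and were almost equal as normalized counts, so the groups of 3 overlapped. The difference was 0.09 ± 0.27 (SE) over 6 libraries and 0.13 ± 0.06 (SE) over the 4 alike libraries, in which both mutant values were above both wild-type values.

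Per2 stood at 441, 170 and 185 normalized counts across wild-type 1 to 3 and at 205, 319 and 264 across mutant 1 to 3. Its highest value was in wild-type 1, and without the libraries that stood apart both mutant values were the higher. The difference was 0.07 ± 0.38 (SE) over 6 libraries and 0.30 ± 0.12 (SE) over 4, where the mean count was 1.32 times higher.

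Per3, the least needed of the 3 Period genes for rhythms, lay the other way in the 4 alike libraries. Per3 stood at 114, 176 and 179 normalized counts across wild-type 1 to 3 and at 153, 91.6 and 154 across mutant 1 to 3. The libraries that stood apart were the lowest of their groups, and the other 4 separated by label over a narrow range. The difference was −0.17 ± 0.27 (SE) over 6 libraries and −0.15 ± 0.09 (SE) over 4. The window before the Per3 start is shown because it holds the D-box TTATGTAA, the sequence that DBP, TEF and HLF activate and NFIL3 represses, 2 times, at 205 and 158 bases before the start, in capitals.
Per3, chr4:151044666-151044915, minus strand, GRCm38.p6: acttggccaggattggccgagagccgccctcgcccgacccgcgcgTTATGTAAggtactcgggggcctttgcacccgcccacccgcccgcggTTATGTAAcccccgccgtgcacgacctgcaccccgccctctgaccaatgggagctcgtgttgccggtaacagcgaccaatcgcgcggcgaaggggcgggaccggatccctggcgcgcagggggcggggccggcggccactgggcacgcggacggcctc
This D-box (TTACATAA on the other strand) was in 0.819% of all RefSeq windows and in 1 of the 9 members, and 6 windows of all, or 0.0183%, held it 2 times or more.

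The Cryptochrome genes encode the strongest repressors of the loop. Cry1 had the narrowest range of the 10 over all 6 libraries, at 962, 897 and 928 normalized counts across wild-type 1 to 3 and at 1016, 799 and 976 across mutant 1 to 3. Mutant 2 lay below the wild-type range. The difference was −0.004 ± 0.189 (SE) over 6 libraries and 0.12 ± 0.06 (SE) over 4. Cry2 stood at 1727, 1055 and 1064 normalized counts across wild-type 1 to 3 and at 1109, 2906 and 1127 across mutant 1 to 3. The libraries that stood apart held the 2 highest values, and the other 4 lay within 1.07 times of each other. The difference was 0.29 ± 0.44 (SE) over 6 libraries and 0.07 ± 0.05 (SE) over 4.

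Nr1d1, the gene of REV-ERBα, had the widest range of the 10, but its values tracked those of a gene it overlaps. Nr1d1 stood at 602, 209 and 205 normalized counts across wild-type 1 to 3 and at 189, 2460 and 169 across mutant 1 to 3. Mutant 2 stood 12.7 times above the mean of the 4 alike libraries and wild-type 1 stood 3.12 times above it. Exons of Nr1d1 overlap on the opposite strand with exons of Thra, the thyroid hormone receptor α gene, in the GENCODE annotation. Thra stood at 25741, 8410 and 8570 normalized counts across wild-type 1 to 3 and at 7941, 100204 and 6739 across mutant 1 to 3. Nr1d1 therefore stood at 2.34%, 2.49% and 2.39% of Thra in wild-type 1 to 3, and at 2.38%, 2.45% and 2.51% in mutant 1 to 3. While Nr1d1 ranged 14.5 times and Thra 14.9 times over the libraries, their ratio ranged 1.07 times. Of 13999 tested genes above 0 in every library, Nr1d1 was the only 1 whose ratio to Thra was as even. Whether the counting used strand is not given in the sources used here, so reads of Nr1d1 and of Thra cannot be told apart.

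The genotype difference of Nr1d1 carries this limit. It was 0.53 ± 1.02 (SE) over 6 libraries and −0.16 ± 0.09 (SE) over the 4 alike libraries, where Thra was also lower in both mutant libraries. Nr1d2, the gene of REV-ERBβ, had no such overlap. Nr1d2 stood at 423, 314 and 303 normalized counts across wild-type 1 to 3 and at 259, 686 and 212 across mutant 1 to 3. Both libraries that stood apart were the highest of their group, and mutant 1 and 3 were the 2 lowest of all. The difference was −0.005 ± 0.433 (SE) over 6 libraries and −0.32 ± 0.10 (SE) over 4, a mean count of 0.765 times the wild-type.

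**Figure D4:**
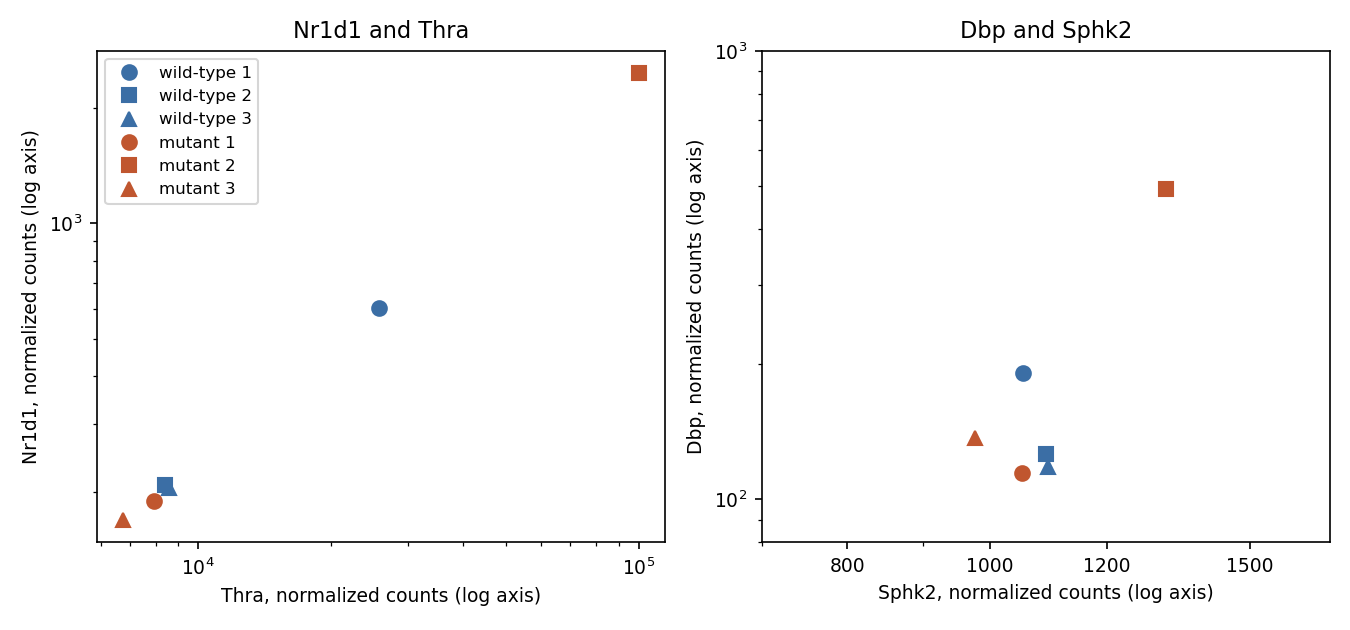
Normalized counts (log axes) of 2 clock genes against the genes whose exons they overlap on the opposite strand, with 1 point per library. Nr1d1 lies with Thra along a line of even ratio, between 2.34% and 2.51% of Thra, while Dbp does not keep an even ratio to Sphk2.

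Dbp, the D-box activator and a direct target of CLOCK and BMAL1, kept no order between the labelled groups. Dbp stood at 191, 126 and 118 normalized counts across wild-type 1 to 3 and at 114, 491 and 137 across mutant 1 to 3. Mutant 2 stood 3.96 times above the mean of the 4 alike libraries, and among those 4 the groups overlapped. The difference was 0.39 ± 0.49 (SE) over 6 libraries and 0.02 ± 0.11 (SE) over 4. Dbp overlaps Sphk2, a sphingosine kinase gene, on the opposite strand, and its share of the Sphk2 count lay between 10.8% and 37.3%, so that pair kept no even ratio. Cry2 overlaps D930015M05Rik, which had at most 7.32 normalized counts.

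Arntl encodes BMAL1, the activator that REV-ERB proteins repress. Arntl stood at 492, 279 and 319 normalized counts across wild-type 1 to 3 and at 238, 1064 and 221 across mutant 1 to 3. Mutant 2 was the highest and mutant 1 and 3 were the 2 lowest, so the groups of 3 overlapped fully. The difference was 0.14 ± 0.60 (SE) over 6 libraries and −0.30 ± 0.10 (SE) over 4, a mean count of 0.769 times the wild-type.

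**Figure D5:**
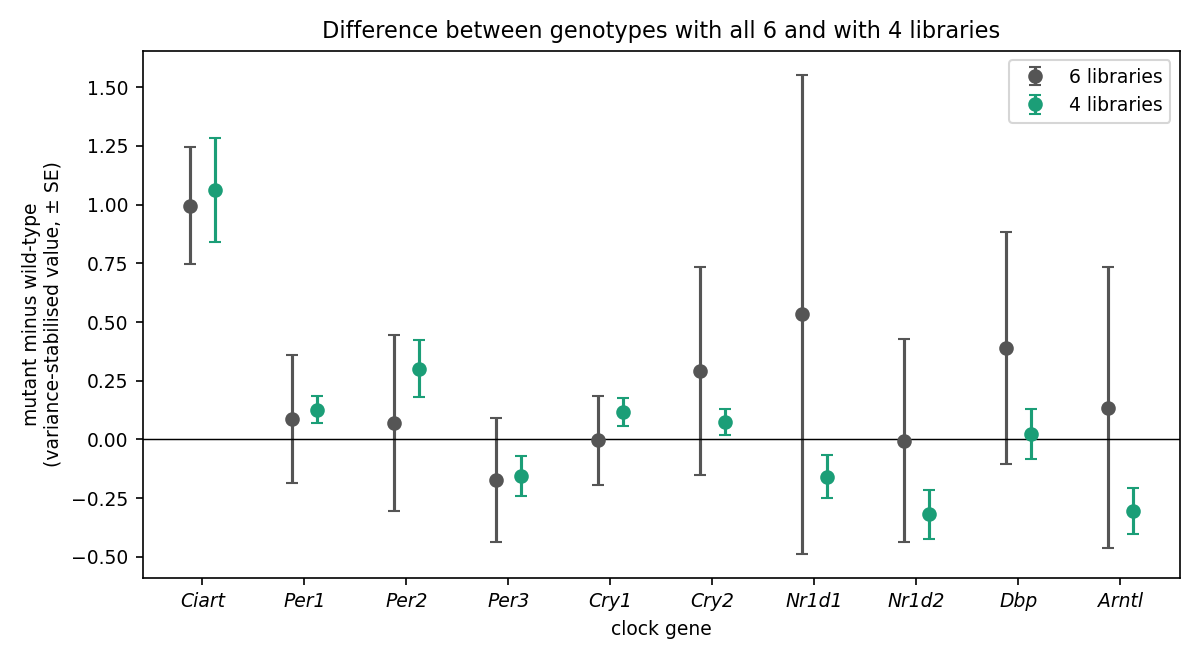
Difference between mutant and wild-type in variance-stabilised value, with its SE, for each clock gene, over all 6 libraries (grey) and over the 4 alike libraries (green). Ciart lies near 1 in both, and for Cry1, Nr1d1 and Arntl the sign differs between the 2 sets of libraries, with Cry1 at −0.004 over all 6.

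Among the 4 alike libraries the members went both ways, as the plot of differences shows. Both mutant libraries lay above both wild-type libraries for 5 of the 10 (Ciart, Per1, Per2, Cry1 and Cry2), an order held by 29.3% of all genes. Both lay below for 4 of the 10 (Per3, Nr1d1, Nr1d2 and Arntl), an order held by 18.1% of all genes. Without Nr1d1 the counts were 5 and 3 of 9. The genotype comparison chose the members, so nothing is read from these counts. The median difference of the 10 was 0.05, against 0.02 for all genes, and over 6 libraries it was 0.11, against 0.003. For 8 of these 9 genes the difference was at most 0.32 in size, and for Ciart it was 1.06.

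The libraries that stood apart differed from the rest in most clock genes. Mutant 2 held the highest value of 6 of the 10 (Per1, Cry2, Nr1d1, Nr1d2, Dbp and Arntl), as it did for 38.2% of all genes, and the lowest of 2 (Per3 and Cry1), as for 42.7%. Wild-type 1 held the highest value of 1 (Per2), as it did for 15.4% of all genes. Both wild-type 1 and mutant 2 lay above all 4 other libraries for 7 of the 10, against 30.0% of all genes, and below them for Per3 alone, against 35.1%. Without Nr1d1 they lay above for 6 of 9. Mutant 2 exceeded the mean of the 4 alike libraries 4.02 times for Arntl, 3.96 times for Dbp, 2.67 times for Cry2, 2.52 times for Nr1d2, 1.55 times for Per2 and 1.51 times for Per1. Wild-type 1 exceeded it 1.86 times for Arntl, 1.54 times for Dbp, 1.59 times for Cry2, 1.56 times for Nr1d2 and 2.14 times for Per2, and it also lay above it for Per1. The step was larger in mutant 2 for Arntl, Dbp, Cry2 and Nr1d2 and larger in wild-type 1 for Per2. These ratios are not corrected for the larger normalized total of mutant 2. Wild-type 1 and mutant 2 both stood apart in cell-type markers. They are the libraries with more neuronal and fewer dividing-cell transcripts, and the part of that difference in the clock values was not tested. In whole tissue, fewer cells of a type and less RNA per cell cannot be told apart.

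The other activators and receptors of the loop mostly took their highest or lowest values in the libraries that stood apart. Clock, the partner of BMAL1, stood at 1033, 951 and 1017 normalized counts across wild-type 1 to 3 and at 992, 553 and 1063 across mutant 1 to 3. Npas2, the relative of Clock that is prominent in the adult forebrain, was at 1868 in mutant 2 and 82.0 in wild-type 1, against 2.36 to 11.7 in the other 4. Rorb, a retinoid-related receptor of neurons, had 2866 in mutant 2 and 1074 in wild-type 1, against 329 to 409, and Rora had 386 and 1013, against 198 to 320. Clock was thus lowest, and Npas2 and Rorb highest, in mutant 2. Of the 6 genes 0 passed in limma in either set, with 1 at an unadjusted p under 0.05 over 6 libraries and 2 over 4. Of all 14249 genes, 163 and 2053 had such a p over 6 and over 4 libraries.

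The further repressors and D-box factors followed the libraries that stood apart. Bhlhe40, a repressor that competes for E-boxes and responds to hypoxia, stood at 432, 266 and 232 normalized counts across wild-type 1 to 3 and at 222, 1712 and 304 across mutant 1 to 3, so its groups overlapped where those of Ciart did not. Its relative Bhlhe41 had 148, 72.9 and 53.6, and 74.5, 111 and 106. Tef and Hlf, D-box activators related to Dbp, had 2863 and 590 in mutant 2, against 1029 to 1148 and 182 to 241 in the 4 alike libraries. Nfil3, the D-box repressor, had 1497 in mutant 2 and 1186 in wild-type 1, against 537 to 617. Activators and repressor of the D-box were thus all high in mutant 2. Of these 5 genes 0 passed in limma in either set of libraries, and 0 had an unadjusted p under 0.05.

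Genes whose products modify, degrade or bind PER and CRY proteins gave no call by label. Csnk1d, a casein kinase that phosphorylates PER, lay between 8504 and 9156 normalized counts over the wild-type libraries and between 7219 and 9510 over mutant. Csnk1e, its relative, lay between 9342 and 10217 and between 9991 and 15711, the highest in mutant 2. The 10 genes in this list are kinases, ubiquitin ligase subunits, Timeless and Nono. Of these, 0 passed in limma in either set and 0 had an unadjusted p under 0.05. Of all 14249 genes, 163 had an unadjusted p under 0.05 over 6 libraries and 2053 over 4. The median difference of the list was 0.06 over the 4 alike libraries, against 0.02 for all genes, and 0.04 over 6, against 0.003.

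No clock output or signal passed the test by label. Nampt, the enzyme of NAD salvage, stood at 1744, 1807 and 1858 normalized counts across wild-type 1 to 3 and at 2094, 1172 and 2327 across mutant 1 to 3. Its difference was −0.01 ± 0.29 (SE) over 6 libraries and 0.26 ± 0.07 (SE; limma adjusted p = 0.196) over the 4 alike libraries. Wee1, a mitotic kinase gene with E-boxes, was at 582 in wild-type 1 and at 118 in mutant 2, against 1869 to 1996, the order also of the dividing-cell markers. Usp2, a deubiquitinase gene, was the 1 of 6 outputs with all mutant libraries above all wild-type libraries, against 4.67% of all genes, at 185, 148 and 208 normalized counts across wild-type 1 to 3 and at 211, 655 and 212 across mutant 1 to 3. Of 6 outputs 0 passed in limma in either set, with 0 at an unadjusted p under 0.05 over 6 libraries and 1 over 4. Of all 14249 genes, 163 and 2053 had such a p over 6 and over 4 libraries. Of 13 genes of signalling in the suprachiasmatic nucleus, the brain's master clock, 9 were tested and 0 passed in either set, with 0 and 2 at an unadjusted p under 0.05. Rgs16, a regulator of G-protein signalling, differed by −0.12 ± 0.62 (SE) over 6 libraries and by 0.28 ± 0.08 (SE; limma adjusted p = 0.236) over 4.

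Transcripts that respond to the same inputs as Per1 and Per2, glucocorticoids and cAMP, gave no call by label. Of 8 glucocorticoid targets 0 passed in limma in either set, with 0 at an unadjusted p under 0.05 over 6 libraries and 2 over 4. Of all 14249 genes, 163 and 2053 had such a p over 6 and over 4 libraries. Zbtb16, a zinc-finger gene among the 8 targets, stood at 276, 391 and 335 normalized counts across wild-type 1 to 3 and at 580, 363 and 794 across mutant 1 to 3. Its difference was 0.64 ± 0.33 (SE) over 6 libraries and 0.80 ± 0.15 (SE; limma adjusted p = 0.125) over 4. Of 12 immediate early genes 10 were tested and 0 passed in either set, with 0 and 2 at an unadjusted p under 0.05. Junb stood at 327, 122 and 117 normalized counts across wild-type 1 to 3 and at 134, 463 and 161 across mutant 1 to 3, again highest in the libraries that stood apart, as for Per1. Arc, a synaptic gene induced by neuronal activity, was the 1 of the 10 with all mutant libraries below all wild-type libraries, against 3.59% of all genes, at 149, 131 and 154 normalized counts across wild-type 1 to 3 and at 103, 128 and 81.3 across mutant 1 to 3. Btg2, which restrains division, had 1044 and 107 in those libraries, against 3714 to 5202.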

How the data were processed

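Poly(A) RNA was sequenced from 6 telencephalon libraries. The authors deposited variance-stabilised normalized counts, values on a log2 scale from 5.13 to 18.39, and per the submitters' processing notes used Salmon 0.9.1, STAR 2.6.0, CASAVA, DESeq 1.16.1 and DESeq2 with build mm9, the part of each not being stated. The lowest value is the transform of a count of 0, which fixes the inverse used here to give normalized counts. The value of 1 read, the commonest lowest step, was 0.536 to 1.31, giving an estimated 27600000 to 51700000 reads per library. Of values under 20 reads, 74.8% to 84.1% lay within 0.05 of a whole number, so no count test was run.

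Genotypes were set against each other in limma 3.58.1 (R 4.3.3) with a mean-variance trend, two-sided, Benjamini-Hochberg adjusted over 14249 genes. The fit was run on simulated data with independent normal noise around each gene's mean. No library stood apart in those data, so that run does not cover this feature of the 6 libraries. The members, lists, 4 alike libraries and rule for named genes were chosen with earlier results of these data known. The rule names all members, 12 loop genes, up to 3 genes per list by p in the 4 alike libraries, any gene that passed, and the 3 genes most like Ciart. Other genes named (Bnip3, Usp2, Arc, Timeless, Nono, Wee1, Thra, Sphk2 and D930015M05Rik) were chosen after their values were seen or by overlap in GENCODE M21. Some genes are not reported here. Promoters are RefSeq, build GRCm38.p6, used for sequence only. Figures were drawn with matplotlib 3.10.9.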

Additional observations from a re-analysis of the deposited data

How the results depend on the processing

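Over all 6 libraries 0 genes passed in limma (163 at an unadjusted p under 0.05), and 3 passed with no filter and 110 with library weights estimated gene by gene, which was added after the values were seen because the default estimate did not converge and was not run further. The weights were 0.102 for wild-type 1 and 0.0255 for mutant 2, against 3.27 to 5.04 for the others. With no weights, leaving out 1 library gave 0 to 4. Same-numbered deviations from the group means correlated at −0.71, −0.71 and 0.62. The libraries that stood apart bear different replicate numbers and weigh on these values. Whether the numbers pair the libraries therefore cannot be read from them. With the replicate block 0 genes passed. Over the 4 alike libraries 36 passed, 1 with no filter, 7 without the trend and 98 with robust moderation, and leaving out 1 library gave 6 (without wild-type 2) to 725 (without mutant 1), 17 without wild-type 3 and 78 without mutant 3, each a fit of 1 library against 2. The cause of these changes was not tested.

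The Ciart difference stayed between 0.83 and 1.55 over the 6-library settings and between 0.73 and 1.67 over the 4-library settings. In the settings that kept all 4 libraries its limma adjusted p lay between 0.131 and 0.527. With 1 mutant library left, the Ciart difference was 1.40 without mutant 1 and 0.73 without mutant 3. Of 150 values of the 10 members over 6 libraries, 24 changed sign, none of them for Ciart, and of 90 over 4 libraries 2 did, both for Dbp. Over 6 libraries Nr1d1 moved from 0.53 to −0.59, Arntl from 0.14 to −0.51, Dbp from 0.39 to −0.13 and Cry2 from 0.29 to −0.15 without mutant 2. Over the alike libraries without mutant 1, Nampt differed by 0.33, Alas1 by −0.48, Lhx1 by 0.82, Zbtb16 by 1.01 and Btg2 by 0.47. That fit holds 1 mutant library. Depth limits low members such as Ciart, at 64.6 to 357 estimated reads, and Per3, at 69.8 to 266.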
